A study of Mus musculus with 8 samples.

Results

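The genes described here encode the proteins of the cytosolic ribosome. They were chosen by symbol alone: Rpl or Rps followed by digits and at most 1 of the letters a, l or x, together with Rplp0, Rplp1, Rplp2 and Rpsa. The rule found 81 members among the 23952 gene symbols of the table, 32 of the small subunit (40S) and 49 of the large subunit (60S). No measured value entered the choice, except that a symbol with several transcripts is represented by the transcript with the highest mean over all libraries. Genes whose symbols have another form (such as Fau, Gnb2l1, Rpl22l1, Rpl36al and Rpl7l1) were kept as a separate list.

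A ribosome is built from ribosomal RNA and 1 copy of nearly every one of these proteins, so growing cells make them in roughly matched amounts. Their genes are among the most highly transcribed in any tissue. Many of their mRNAs begin with a C followed by a run of C and U, the terminal oligopyrimidine tract, through which growth signalling by mTOR sets how well they are translated. A few members have paralogues with restricted expression: Rpl3l in heart and skeletal muscle, Rpl10l and Rpl39l in male germ cells. Mammalian genomes also hold many processed pseudogenes of this family, which are near-identical to the coding sequence of the parent gene.

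RNA was sequenced from Lewis lung carcinomas grown under the skin of mice and from cells sorted from them, in 4 groups of 2 libraries. The tumors came from a mouse lung carcinoma cell line carrying the red protein dTomato, after sorting and growth in G418. The hosts were transgenic Col1a1-GFP mice, in which a collagen gene drives green fluorescent protein, and all tumors received fluorescent collagen 24 h before the sort. The groups are the whole tumor (Total tumor), carcinoma cells sorted for dTomato (LLC), cells sorted for GFP (Fibroblast), and the tumor-associated macrophages (TAM), which carried F4/80 and had taken up collagen but showed neither dTomato nor GFP. The labels give neither the age nor the strain of the mice. Nothing says whether the replicates came from separate animals, and p-values then reflect only how far these libraries differ.

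Values are RPKM, reads per kilobase of transcript per 1e6 reads. Depth, estimated from the steps between low values, lay between 4.28 and 10.37 M reads, and in every group replicate 2 was the shallower library. Summed over 7 macrophage markers, TAM reached 13043 and 9612 RPKM against at most 307 RPKM in LLC and Fibroblast. Over 8 fibroblast markers the Fibroblast libraries reached 23926 and 22379 RPKM, LLC 3727 and 4965 RPKM, and TAM 132 and 641 RPKM. The carcinoma markers Krt8 and Krt18 were present in LLC, but Epcam and Cdh1 were below 1 RPKM there and Nkx2-1 was listed at 0. Over the 6 epithelial markers LLC reached 179 and 129 RPKM, Fibroblast 24.8 and 179 RPKM, and TAM 11.2 and 12.7 RPKM. This sum thus did not separate Fibroblast 2 from LLC. In Fibroblast 2 Krt19 was at 99.6, Epcam at 8.93 and Cdh1 at 4.50 RPKM, against 16.5, 0.328 and 0.262 RPKM in Fibroblast 1. Krt19 was at 0.070 and 1.53 RPKM in LLC.

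Promoter sequence from RefSeq (build GRCm38.p6) could be matched for 60 of the 81 members, in 72 windows that run from 250 bases before to 50 bases after an annotated start. They were searched for a run of C and T near the annotated start, and the windows printed below are examples that hold one. Whether these runs begin the mRNA, or act in regulation, was not tested. Each line gives 45 bases before and 20 bases from the annotated start onward, 5′ to 3′, with the C and T tract in capitals.
Rps6 (chr4:86857348-86857412, minus strand): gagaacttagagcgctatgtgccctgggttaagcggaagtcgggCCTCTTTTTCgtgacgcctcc
Rpl13a (chr7:45128726-45128790, minus strand): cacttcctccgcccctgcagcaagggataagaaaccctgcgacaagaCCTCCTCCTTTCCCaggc
Rpl27a (chr7:109519150-109519214, plus strand): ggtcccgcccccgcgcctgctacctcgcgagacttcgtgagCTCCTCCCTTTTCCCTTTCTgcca
Rplp2 (chr7:141447606-141447670, plus strand): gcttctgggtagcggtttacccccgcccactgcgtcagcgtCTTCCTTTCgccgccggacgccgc
Rpl4 (chr9:64173342-64173406, plus strand): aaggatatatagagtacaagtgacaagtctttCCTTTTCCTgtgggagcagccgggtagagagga
Rps2 (chr17:24720018-24720082, plus strand): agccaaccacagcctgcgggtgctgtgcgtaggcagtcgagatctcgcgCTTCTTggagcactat
Rps6 is the protein that S6 kinase phosphorylates, Rplp2 belongs to the acidic stalk, and Rpl4 and Rps2 are members whose levels differed between the sorted populations. Counted from the annotated start as position 1, with no position 0, the tract began at -1 in Rps6, 3 in Rpl13a, -4 in Rpl27a and Rplp2, -13 in Rpl4 and 5 in Rps2. It was 20 letters long in Rpl27a, 14 in Rpl13a and 6 in Rps2. None of these tracts began at position 1, and that of Rpl4, 9 letters long, ended before the annotated start. A C followed by at least 4 letters C or T, beginning within 15 bases of the start, was present in 65.3% of the member windows, 49.3% of the 75 windows of mitochondrial ribosomal protein genes and 40.9% of all 32851 windows. CCGGAA, the core letters of ETS factor sites, was present on either strand in 47.2%, 57.3% and 14.9% of these windows. AAGATGGC, the core of YY1 sites, was present in 9.72%, 16% and 2.75%, and TATAAA in 8.33%, 6.67% and 13.6%. These are matches of letters, and no binding was measured.

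As a whole the family was more abundant in LLC than in Fibroblast or TAM. Its members made up 6.08 and 5.06% of the summed RPKM in the LLC libraries, 2.76 and 2.55% in Fibroblast, and 2.42 and 2.21% in TAM. The means were 5.57 ± 0.716% (SD, n = 2), 2.65 ± 0.151% and 2.31 ± 0.151%, so the LLC share was 2.41 times that of TAM and 2.10 times that of Fibroblast. Both LLC libraries lay above all 4 libraries of the other sorted cells, and both Fibroblast libraries lay above both TAM libraries by a small margin. In summed RPKM, which is scaled by each library's reads rather than by the summed RPKM of the table, LLC reached 21351 and 16218, Fibroblast 9255 and 8193, and TAM 10854 and 8821. On that scale TAM and Fibroblast overlapped, and their order was the opposite of that of the shares. In bulk samples such as these, fewer cells of a type and less RNA per cell cannot be told apart.

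The whole tumor gave no single level. Total tumor 1 held 4.54% and Total tumor 2 held 8.18%, 14582 and 39329 RPKM in sum, and the difference within this pair exceeded any between the means of 2 sorted populations. Of the 79 members tested, 74 were higher in Total tumor 2, with a median log2 difference of 1.33, while the median over all genes was 0.00. Among the 54 members at 10 RPKM or more the ratio of Total tumor 2 to Total tumor 1 ran from 1.35 to 4.15, and 45 of them exceeded 2. Marker sums of other cell types differed between these libraries as well. From Total tumor 1 to Total tumor 2 the 7 macrophage markers went from 785 to 2649 RPKM, the 3 neutrophil markers from 126 to 578 RPKM and the 6 epithelial markers from 129 to 302 RPKM. The 3 B cell markers went from 41.1 to 2.30 RPKM, the 4 T and NK cell markers from 24.8 to 6.49 RPKM, the 4 endothelial markers from 29.0 to 20.8 RPKM and the 8 fibroblast markers from 2755 to 2172 RPKM. Their part in the family's difference was not tested. The other pairs moved the opposite way by less: replicate 2 minus replicate 1 had a median of -0.43 in LLC (69 of 79 members lower), -0.15 in Fibroblast (60 lower) and -0.36 in TAM (72 lower).

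The replicate differences were also read against coding length. Over 53 members at 10 RPKM or more with a coding length, the log2 replicate difference and log2 coding length gave Pearson's r of -0.40 in Total tumor, 0.42 in LLC, -0.11 in Fibroblast and 0.35 in TAM. These describe genes within pairs of libraries that also differ in depth. The 17 shortest coding sequences (75 to 369 bases) had a median replicate difference of 1.51 in Total tumor, -0.55 in LLC, -0.12 in Fibroblast and -0.42 in TAM. The 17 longest (582 to 1257 bases) had 1.37, -0.31, -0.14 and -0.24. The shortest members thus differed more between replicates in LLC, by smaller margins in TAM and Total tumor, and not in Fibroblast. The members with the largest replicate differences were Rpl11, which with Rpl5 binds the ubiquitin ligase Mdm2, and the short members Rps28 and Rpl39. Rpl11 was near the floor throughout, between 0 and 2.525 RPKM over the 8 libraries, so its replicate difference is uncertain. Rps28 was at 25.1 and 7.64 RPKM in the TAM libraries and Rpl39 at 56.3 and 27.5 RPKM. What part RNA quality or priming had in this was not tested.

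**Figure D1:**
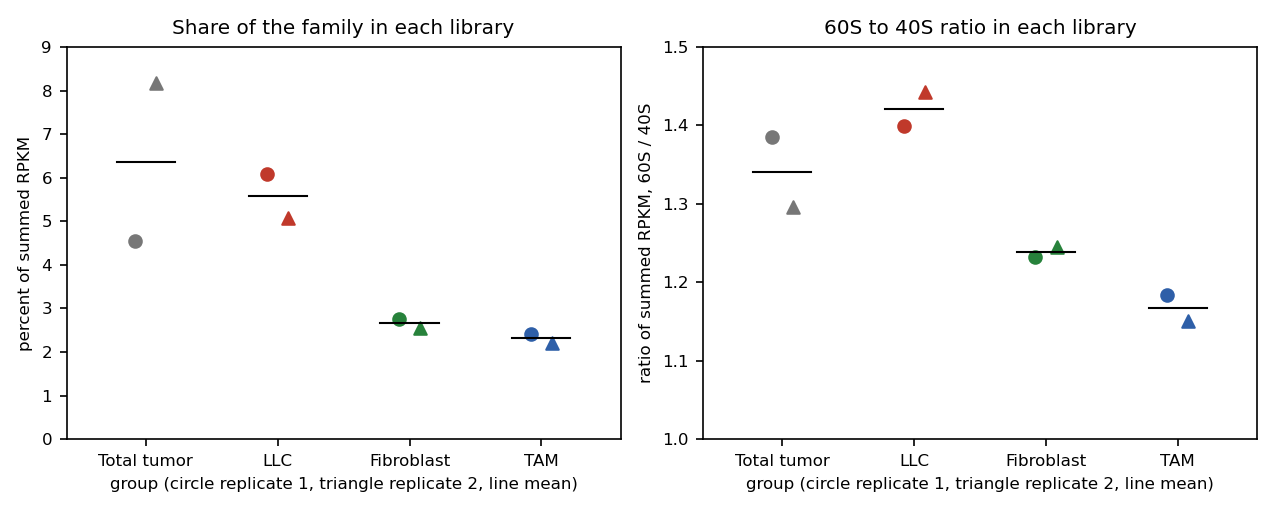
Left, the percent of summed RPKM taken by the 81 members in each library. Right, the summed RPKM of the 60S members divided by that of the 40S members (the axis starts at 1). Circles are replicate 1, triangles replicate 2 and lines the mean of the 2 libraries. Both LLC libraries lie above the Fibroblast and TAM libraries in both panels, and the Total tumor libraries are far apart in the left panel.

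The ratio of the subunits also differed. Summed 60S RPKM divided by summed 40S RPKM was 1.40 and 1.44 in LLC, 1.39 and 1.30 in Total tumor, 1.23 and 1.25 in Fibroblast, and 1.18 and 1.15 in TAM. The sorted groups did not overlap and stood in the order LLC, Fibroblast, TAM. With 2 libraries a group this is a description, without a test. It leaned on the most abundant 60S members: without Rplp1, Rpl8 and Rpl4, chosen after their values were seen, the ratio was 0.777 and 0.80 in LLC, 0.716 and 0.720 in Fibroblast and 0.747 and 0.705 in TAM. LLC then remained above the others, but Fibroblast and TAM overlapped. Those 3 genes held 25.9 and 26.3% of the family's RPKM in LLC, 23.1 and 23.4% in Fibroblast and 20.03 and 20.7% in TAM.

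Levels of the tested members spanned more than 3 orders of magnitude. Rplp1, a stalk protein through which elongation factors are recruited, had the highest mean over the 8 libraries, 1522 RPKM. Its level was 1306 and 4015 RPKM in Total tumor, 2139 and 1457 in LLC, 903 and 778 in Fibroblast, and 904 and 675 in TAM. Rpl8, at the catalytic centre of the large subunit, followed with 1332 RPKM, and then Rpl4, which lines the exit tunnel, with 1068. Rps15, in the head of the small subunit, had 833 RPKM. The 10 highest members held between 54.0 and 57.8% of the family's RPKM in each library. Of the 15 genes that were among the 10 highest in any library, 7 were so in all 8.

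At the other end, Rpl23a and Rpl11, which are core proteins of every ribosome, averaged 1.30 and 1.26 RPKM. Rpl23a was listed at 0 in TAM 2, as was Rpl11. Of the paralogues with restricted expression, Rpl10l was listed at 0 in all 8 libraries. Rpl3l was at 0.821 RPKM in Total tumor 2, at 0.186 in LLC 1 and at 0 elsewhere. These paralogues were the members not tested, which left 79 (32 of 40S and 47 of 60S) that reached 1 RPKM in at least 2 libraries.

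**Figure D2:**
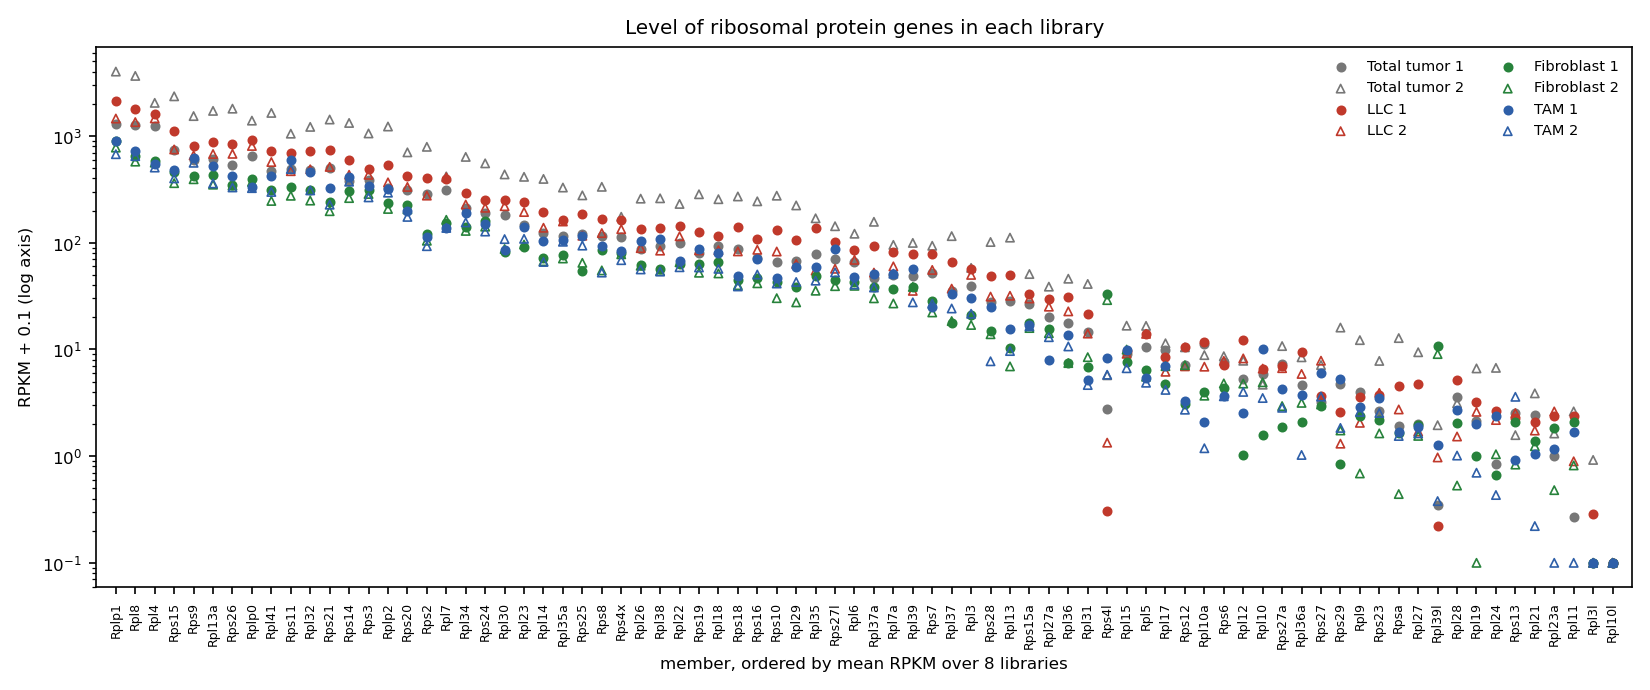
RPKM of 78 members in the 8 libraries, on a log axis after adding 0.1, ordered by mean level. Filled circles are replicate 1 and open triangles replicate 2 of each group. Levels fall from 1522 RPKM for Rplp1 to 0 for Rpl10l, Total tumor 2 is the highest library for most of them, and Rps4l and Rpl39l are the members highest in Fibroblast.

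Proteins that occur in equal numbers in the ribosome were thus listed at very different levels, and the low members had a sequence property in common. Each coding sequence (GENCODE M21, GRCm38) was read in overlapping stretches of 50 bases, the read length, and each stretch was looked for in the transcripts of other genes, pseudogenes included. For Rps27 and Rps4l, which have non-coding accessions, the whole transcript was used. The untranslated parts of the other members were not searched, so a member with every stretch shared may still have sequence of its own there. In 29 of the 81 members every stretch occurred in another gene as well. Such members made up 22 of the 27 members with a mean under 10 RPKM, 7 of the 54 at 10 RPKM or more and 2 of the 33 at 100 RPKM or more. The median of their mean levels was 5.38 RPKM, against 120 RPKM for the other 52. Over the 80 members with a value above 0, log2 mean level and percent shared gave Spearman's rho of -0.64 and Pearson's r of -0.36, a description across genes that share these libraries.

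Rpl8 was near the unshared end, with 8.73% of stretches shared. Rps6, the substrate of S6 kinase, had every stretch shared and was listed at 7.55 and 8.53 RPKM in Total tumor, 6.99 and 7.71 in LLC, 4.29 and 4.70 in Fibroblast and 3.53 and 3.54 in TAM. The relation had exceptions. Rpl41, whose coding sequence of 75 bases is the shortest, and Rpl38 had every stretch shared at 586 and 106 RPKM, and Rpl13a had 97.5% shared at 693 RPKM. For Rpl41 this covers 26 stretches in a transcript of 437 bases, and for Rpl38 a coding sequence of 210 bases in 364. No source used here says how reads matching several places were assigned, and whether this set the levels was not tested. A low RPKM of such a member is uncertain as a measure of its mRNA.

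**Figure D3:**
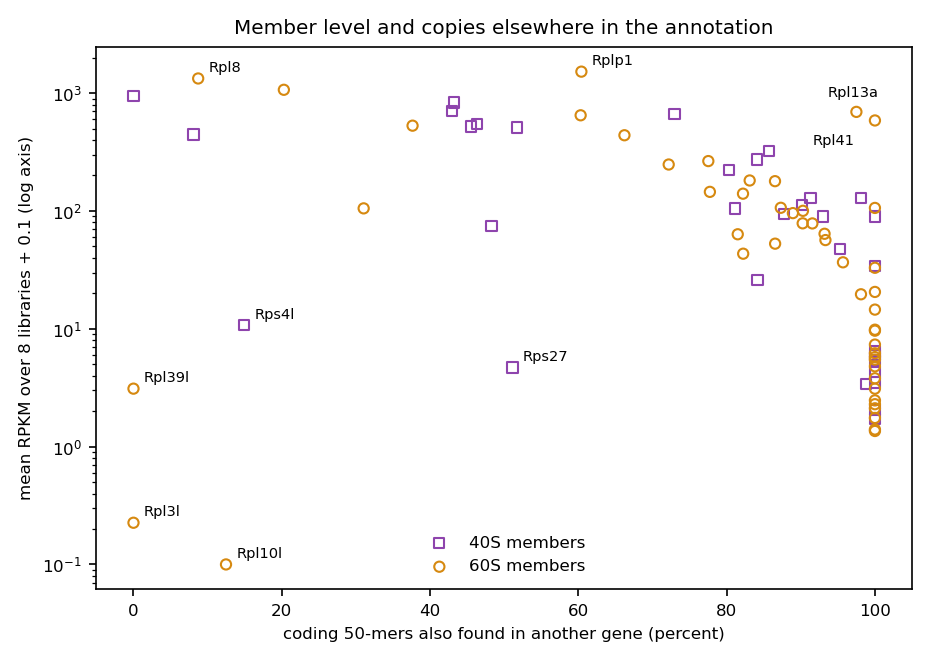
Mean RPKM over 8 libraries plus 0.1 (log axis) against the percent of coding stretches of 50 bases that also occur in another gene. Squares are 40S and circles 60S members. Members with every stretch shared lie mostly under 10 RPKM, and Rpl41 at 586 RPKM is the highest of them.

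TAM against LLC. Of the 79 members tested, 15 were lower and 1 was higher in TAM, at a Benjamini-Hochberg adjusted p under 0.05 with limma on log2(RPKM + 1). That is 19% lower, below the 27.5% of all 13311 genes called lower, and 1.27% higher against 15.4%. The median log2 difference of the members was -0.82, against -0.38 for all genes, and 76 members had a negative sign. In 58 members both TAM libraries lay below both LLC libraries (73.4% of members, 50.9% of all genes). The members' median thus lay below that of all genes, while in this fit the share of members that passed the test did not exceed the background. Here and in the comparisons below, the main fit takes 1 spread per gene from all 4 groups. A wide Total tumor pair thus raises a member's SE in every comparison. That pair differed by a median log2 of 1.33 in the members and 0.00 in all genes. Without it the members' median stayed at -0.82 and 44 members were called lower. The 40S and 60S members had medians of -0.83 and -0.80. Members with every stretch shared and those without had the same median, -0.82.

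Rpl10a, which forms the stalk that guides spent tRNA out, fell the most. It was listed at 11.6 and 6.79 RPKM in LLC and 1.99 and 1.09 RPKM in TAM, a log2 difference of -1.99 ± 0.34 (SE; adjusted p = 0.00256, n = 2 and 2). The libraries did not overlap, and the call held under all 20 alternatives run, though every stretch of Rpl10a is shared. Rps2, at the mRNA entry of the small subunit, was at 402 and 276 RPKM in LLC and 113 and 92.7 RPKM in TAM, a difference of -1.69 ± 0.48 (adjusted p = 0.0242). Rpl31, near the end of the exit tunnel, was at 21.5 and 13.97 against 5.08 and 4.54 RPKM, -1.66 ± 0.46 (adjusted p = 0.0216). Every stretch of Rpl31 is shared too. Rpl4 was at 1605 and 1461 RPKM in LLC and 543 and 506 RPKM in TAM, -1.54 ± 0.45 (adjusted p = 0.0276). Its 2 groups lay far apart beside the spread within each, yet 8 of the 20 alternatives ended the call, among them leaving out any 1 library of the sorted groups (adjusted p = 0.0603 to 0.144). The Rps2 call was lost without LLC 1, LLC 2, TAM 1 or TAM 2 (adjusted p = 0.0566 to 0.139), and the Rpl31 call without LLC 1, TAM 1 or TAM 2 (adjusted p = 0.0801 to 0.130).

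The other members that fell were Rpl7, Rpl36a, Rplp0, Rpl27a, Rps7, Rpl5, Rpl30, Rps12, Rpl3, Rps4x and Rps6, by 1.53 to 0.88 on the log2 scale. Of these, Rpl36a, Rpl27a, Rpl5, Rps12 and Rps6 have every stretch shared. Rplp0, the base of the stalk, was at 916 and 806 RPKM in LLC and 331 and 325 in TAM. Its partners Rplp1 and Rplp2 had differences of -1.18 and -0.54 and were not called (adjusted p = 0.185 and 0.499). Rpl5, which carries the smallest rRNA of the large subunit, was at 13.8 and 13.9 RPKM in LLC and 5.28 and 4.77 in TAM, -1.30 ± 0.28 (adjusted p = 0.00773), while its partner Rpl11 had -0.59 ± 0.66 (adjusted p = 0.503). Rps6 had -0.88 ± 0.24 (adjusted p = 0.022). Rps27a, made as a fusion with ubiquitin, Rpl41 and Rpsa, the laminin receptor protein, had differences between -0.82 and -0.86 and were not called.

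The number of calls varied with the libraries used and with the processing. Without the Total tumor libraries, an alternative added after their difference was seen, 44 members were lower in TAM (55.7% of members against 37% of all genes). With a correction for transcript length it was 52 (65.8% against 30.2%), and with quantile normalization 39 (49.4% against 20.7%). A term for the replicate number in a fit of the sorted groups alone, also added later, gave 55 (69.6% against 41.3%). Without LLC 1, LLC 2, TAM 1 or TAM 2 the members' median was, in that order, -0.64, -1.03, -1.01 and -0.60. That of all genes was -0.33, -0.41, -0.36 and -0.41. Without either Total tumor library the members' median stayed at -0.82.

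Fibroblast against LLC. Here 16 members were lower and 2 were higher in Fibroblast, 20.3% and 2.53% of those tested, against 25.7% and 13% of all genes. The members' median was -1.03 and that of all genes -0.46. In 68 members both Fibroblast libraries lay below both LLC libraries (86.1% of members, 56.6% of all genes). The exceptions were the 2 higher members, Rps4l and Rpl39l, and 9 members whose libraries overlapped.

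Rpl13, of the large subunit, was listed at 49.4 and 31.7 RPKM in LLC and 10.1 and 6.83 RPKM in Fibroblast, a log2 difference of -2.12 ± 0.59 (adjusted p = 0.0255). Every stretch of Rpl13, and of Rpl12, is shared with other genes. Rpl12, at the base of the stalk, was at 12.2 and 8.13 against 0.916 and 4.68 RPKM, -1.74 ± 0.52 (adjusted p = 0.0332), and the Fibroblast libraries differed several-fold from each other. Rpl36 was at 31.1 and 22.6 against 7.42 and 7.34 RPKM, -1.72 ± 0.42 (adjusted p = 0.0158), with closely matched Fibroblast libraries. Rps2 was at 121 and 104 RPKM in Fibroblast, -1.56 ± 0.48 below LLC (adjusted p = 0.0369), and 9 of 20 alternatives ended that call, among them leaving out any 1 library of the sorted groups (adjusted p = 0.0601 to 0.191). The Rpl12 call was lost under 7 alternatives, among them without LLC 1, LLC 2, Fibroblast 1 or TAM 2 (adjusted p = 0.05004 to 0.190). The Rpl13 call was lost under 5, the upper-quartile rescaling and the fits without either LLC or either Fibroblast library (adjusted p = 0.0509 to 0.142). The Rpl36 call was lost without LLC 1, Fibroblast 1 or Fibroblast 2 (adjusted p = 0.0804 to 0.103).

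The other members that fell included Rpl30, Rpl3, Rpl4, Rps7, Rpl7, Rps25, Rps27a, Rpl7a, Rpl5, Rpl10a and Rps4x, by 1.48 to 0.89. Of these, Rps27a, Rpl5 and Rpl10a have every stretch shared. Rpl3, which reaches towards the catalytic centre, was at 56.1 and 49.8 RPKM in LLC and 21.1 and 16.8 in Fibroblast (-1.44 ± 0.28, adjusted p = 0.00665). Rps27a was at 6.96 and 6.57 against 1.77 and 2.84 RPKM (-1.25 ± 0.32, adjusted p = 0.0189). Rplp0 and Rps6, called in TAM, had -1.16 and -0.60 here (adjusted p = 0.0766 and 0.0867). These comparisons share the LLC libraries, so the recurrence of Rpl4, Rps2 or Rpl3 in both is not independent. Without Total tumor 55 members were lower in Fibroblast (69.6% against 39.2% of all genes), with the length correction 41 (51.9% against 29.5%), and with the replicate term over the sorted groups 63 (79.7% against 44.4%). Upper-quartile rescaling left 2 higher and 4 lower (2.53% and 5.06% of members, against 16.7% and 11.1% of all genes). Without LLC 1, LLC 2, Fibroblast 1 or Fibroblast 2 the members' median was, in that order, -0.81, -1.27, -1.11 and -0.92. That of all genes was -0.43, -0.50, -0.49 and -0.52.

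**Figure D4:**
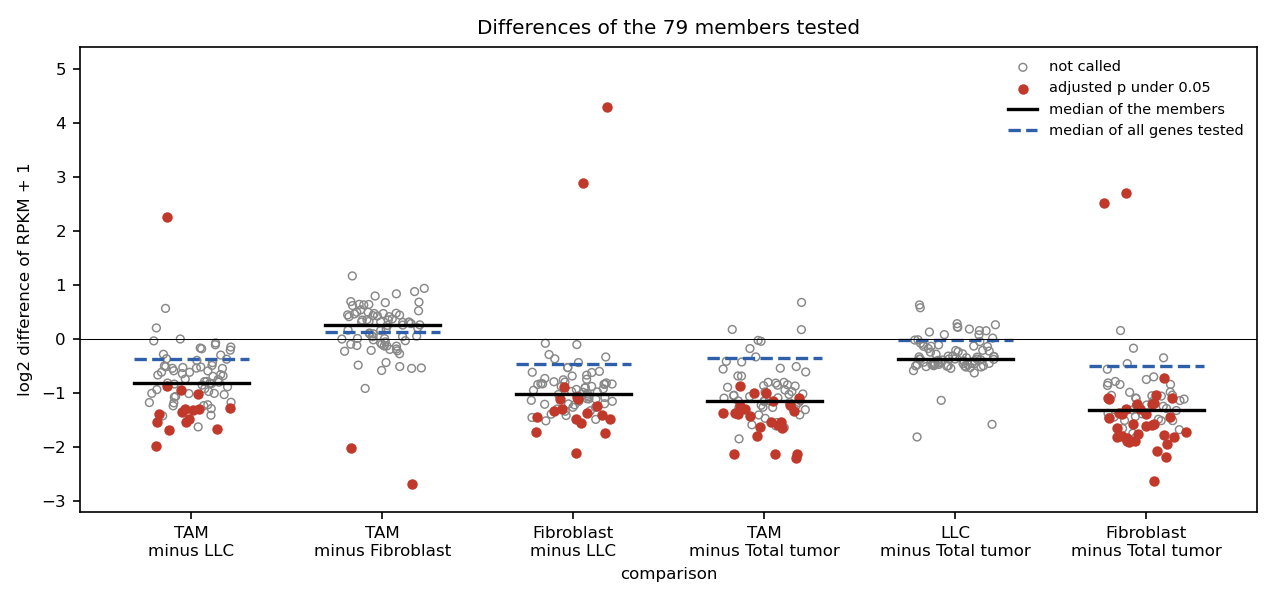
Log2 differences of RPKM + 1 for the 79 members tested in the 6 comparisons, each point a member. Red points have a limma adjusted p under 0.05, black lines are the members' medians and dashed lines the medians of all 13311 genes. The members' medians lie below those of all genes in 5 comparisons and above in TAM minus Fibroblast, and Rps4l and Rpl39l are the red points above 0.

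TAM against Fibroblast. No member was higher and 2 were lower in TAM (2.53%), against 17.4% and 17.3% of all genes. At an unadjusted p under 0.05 there were 3 members. The median was 0.25 for the members and 0.13 for all genes. The members' median turned to -0.049 with upper-quartile rescaling, -0.055 with quantile normalization, -0.15 with the length correction and -0.026 without TAM 1, so no direction is given for the family in this comparison. The TAM libraries lay above the Fibroblast libraries in 20 members, below in 12, and overlapped in 47 (25.3% above against 41.5% of all genes, 15.2% below against 31.6%).

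Far on the high side, and not called, were Rps29 (0.93 ± 0.60, adjusted p = 0.286) and Rpl10 (0.87 ± 0.53, adjusted p = 0.252), the protein that joins the large subunit last. Rps29 was at 5.15 and 1.74 RPKM in TAM and 0.748 and 1.64 RPKM in Fibroblast, and Rpl10 at 9.94 and 3.403 against 1.47 and 4.82 RPKM, with overlap in Rpl10. Rpl39l and Rps4l were the members called lower. Without Total tumor 4 members were higher (5.06% against 25.6% of all genes), and with the length correction none was higher and 4 were lower (5.06% against 19.4%, with 20.9% of all genes higher). With the replicate term over the sorted groups 13 were higher (16.5% against 29.9%) and 3 lower (3.8% against 23.2%).

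Rps4l and Rpl39l were the members that went against the rest. Rps4l resembles Rps4x, the X-linked 40S protein near the mRNA entry, and RefSeq lists it under a non-coding accession. It was at 33.1 and 28.9 RPKM in Fibroblast, 8.18 and 5.69 in TAM, 0.204 and 1.24 in LLC, and 2.65 and 5.62 in Total tumor. No libraries of the 3 sorted groups overlapped. It was higher in Fibroblast than in LLC by 4.28 ± 0.42 on the log2 scale (adjusted p = 0.00044), higher in TAM than in LLC by 2.26 ± 0.42 (adjusted p = 0.00379), and lower in TAM than in Fibroblast (-2.03 ± 0.42, adjusted p = 0.00651). The last call was lost without Fibroblast 1 (adjusted p = 0.0511) and without TAM 2 (adjusted p = 0.0504). Rps4x moved the other way, with 163 and 134 RPKM in LLC, 80.2 and 77.7 in Fibroblast and 84.0 and 68.5 in TAM. Of the coding stretches of Rps4x 90.1% are shared with other genes. Of the transcript of Rps4l 14.9% are shared.

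Rpl39l is the paralogue of Rpl39, a very small protein of the exit tunnel. It was at 10.6 and 8.94 RPKM in Fibroblast, 1.17 and 0.279 in TAM, 0.120 and 0.872 in LLC, and 0.249 and 1.85 in Total tumor. Both Fibroblast libraries lay far above the other 6, which overlapped among themselves. It was higher in Fibroblast than in LLC by 2.89 ± 0.47 (adjusted p = 0.00314) and lower in TAM than in Fibroblast (-2.69 ± 0.47, adjusted p = 0.00313). Rpl39 itself was at 77.5 and 35.3 RPKM in LLC, 38.2 and 38.4 in Fibroblast and 56.3 and 27.5 in TAM, with overlapping groups.

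The coding sequences of this pair are shown because they bear on whether reads of one could be counted for the other. They are from GENCODE M21 (GRCm38), with the bases that differ in capitals.
Rpl39: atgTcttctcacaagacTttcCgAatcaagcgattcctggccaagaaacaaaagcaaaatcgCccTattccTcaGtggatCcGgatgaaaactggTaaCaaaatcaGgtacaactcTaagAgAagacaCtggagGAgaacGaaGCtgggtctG
Rpl39l: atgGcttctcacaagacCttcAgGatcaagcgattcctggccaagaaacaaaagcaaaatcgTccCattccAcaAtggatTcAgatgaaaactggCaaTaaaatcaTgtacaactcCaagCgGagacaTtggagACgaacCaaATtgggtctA
Each has 153 bases, 23 of which differ, an identity of 85.0%. No stretch of 50 bases is shared between them, and Rpl39l shares none with any other gene, whereas 86.5% of those of Rpl39 occur elsewhere.

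Like these paralogues, the fibroblast markers were highest in Fibroblast, and the levels of both were set side by side. As a percent of the mean of the Fibroblast libraries, Rps4l was at 26.4 and 18.4% in TAM, where the 8 fibroblast markers in sum were at 0.571 and 2.77%. In LLC Rps4l was at 0.659 and 3.99%, and the markers at 16.1 and 21.4%. Rpl39l was at 11.9 and 2.86% in TAM and at 1.23 and 8.94% in LLC. Col1a1 alone, the gene whose promoter marks the sorted fibroblasts, was at 0.378 and 2.58% in TAM and 1.602 and 4.03% in LLC. The marker sum in LLC was mostly Col3a1, at 2507 and 3142 RPKM of 3727 and 4965. Thus Rps4l in TAM exceeded both percentages in both libraries. In LLC both paralogues lay below the marker sum, but against Col1a1 Rps4l was close to it in LLC 2 and Rpl39l above it there, so their place in LLC turned with the marker used. Fibroblast 2, the library with more Krt19, was the lower Fibroblast library for both.

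**Figure D5:**
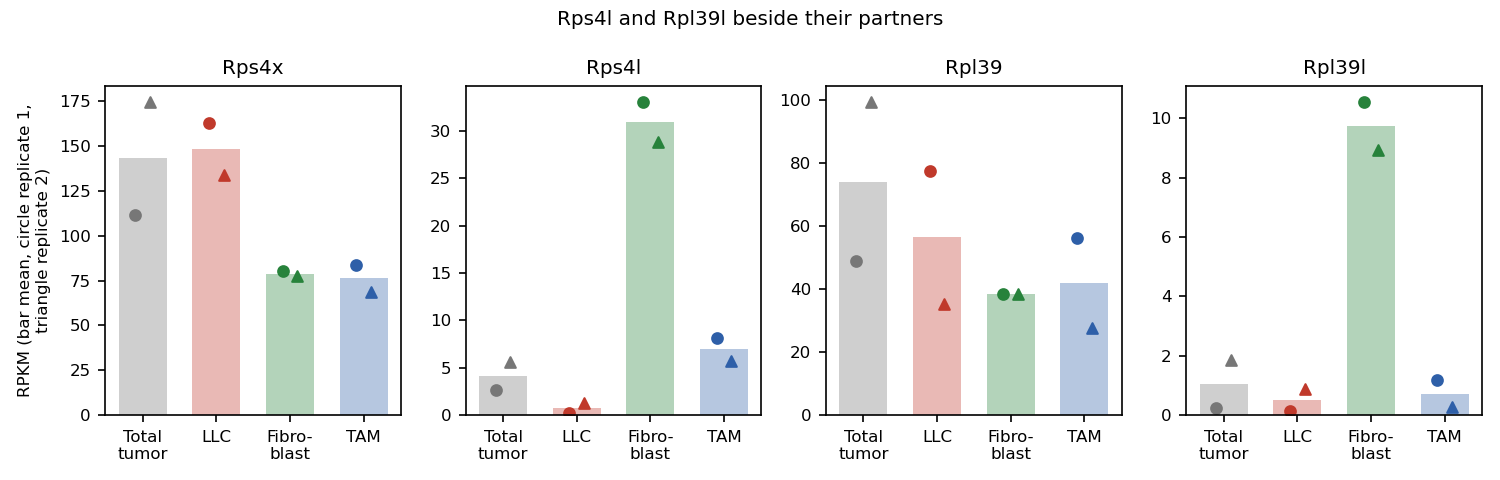
RPKM of Rps4x, Rps4l, Rpl39 and Rpl39l, each on its own axis from 0. Bars are means of the 2 libraries, circles replicate 1 and triangles replicate 2. Rps4l (33.1 and 28.9 RPKM) and Rpl39l (10.6 and 8.94 RPKM) are highest in Fibroblast, while Rps4x is highest in LLC among the sorted groups.

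Of the remaining pairs, Rps27l, a paralogue of Rps27 known as a p53 target, was at 101 and 56.9 RPKM in LLC, 44.9 and 39.0 in Fibroblast and 88.0 and 52.6 in TAM. It differed by -0.15 ± 0.44 between TAM and LLC (adjusted p = 0.81) and was not called in any comparison of sorted populations. The transcript that stands for Rps27 in the table has a non-coding accession and averaged 4.59 RPKM, so it is uncertain as a measure of the Rps27 mRNA. Rpl10 and Rpl10l have coding sequences of 642 bases, 98 of which differ, and share no stretch of 50 bases.

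Members were also compared after the median of the family was subtracted in each library, which asks whether a member moved against the rest. Rps4l was higher in TAM than in LLC by 3.004 ± 0.64 (adjusted p = 0.00644) and Rps2 lower by 0.95 ± 0.29 (adjusted p = 0.0386), where 15.9% and 4.09% of all genes were called higher and lower. Between TAM and Fibroblast Rpl39l (-2.93 ± 0.66, adjusted p = 0.00977) and Rps4l (-2.26 ± 0.64, adjusted p = 0.0305) were lower and no member was higher, against 10.5% and 7.24% of all genes. Between Fibroblast and LLC Rps4l (5.27 ± 0.64, adjusted p = 0.000914) and Rpl39l (3.88 ± 0.66, adjusted p = 0.00297) were higher and none was lower, against 13.6% and 1.07%. The subtraction moves every gene by the family's median difference. The median of all genes was then 0.37 in TAM minus LLC, -0.11 in TAM minus Fibroblast and 0.53 in Fibroblast minus LLC. The percentages of all genes carry this shift, so they are no background rate for members that depart from the family. The other members were not called apart from the family. The Rps2 call was lost when either LLC, TAM or Fibroblast library was left out. The calls between TAM and Fibroblast were lost when any TAM or Fibroblast library was left out, and that of Rps4l between TAM and LLC without LLC 1 or without TAM 1. Without LLC 1, 1 of the 2 higher members remained in Fibroblast against LLC.

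Against the whole tumor, 23 members were lower and none was higher in TAM (29.1% lower against 23.9% of all genes; 11.3% of all genes higher), led by Rps2, Rpl31, Rpl13 and Rpl10a at -2.21 to -2.13. In Fibroblast 34 were lower and 2, Rps4l and Rpl39l, were higher (43% and 2.53% against 30% and 12.1%), with Rpl13, Rps29, Rps2 and Rps21 lowest at -2.63 to -1.94. Between 1 and 5 of 18 alternatives ended the call of each of these lowest members, except that of Rpl10a, which held under all 18 as did the 2 higher calls. Every stretch of Rpl31, Rpl13, Rpl10a and Rps29 is shared with other genes. In 57 and 71 members the TAM and the Fibroblast libraries lay below both Total tumor libraries (72.2% and 89.9%, against 42.6% and 52% of all genes). They lay above in 1 and 2 members, against 19.6% and 18.4%. Between LLC and Total tumor limma called no member, with 2 at an unadjusted p under 0.05, against 0.0526% of all genes higher and 2.3% lower. These comparisons rest on Total tumor 1 and 2, which differ by 1.33. Without Total tumor 1 the members' median was -1.81 in TAM, -1.96 in Fibroblast and -0.99 in LLC. That of all genes was -0.34, -0.49 and -0.067. Without Total tumor 2 the members' median was -0.49 in TAM and -0.69 in Fibroblast, against -0.36 and -0.52 for all genes. That of LLC minus Total tumor turned from -0.38 to 0.31, with 0 for all genes.

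Other genes of translation were read from lists, beside the 27.5% and 25.7% of all genes that were lower in TAM and in Fibroblast than in LLC. Of 40 genes of ribosome assembly and rRNA synthesis, 25 were lower in TAM than in LLC and none was higher, with a median of -1.19 against -0.38 for all genes. Dkc1, the enzyme that modifies rRNA by pseudouridylation, was at 36.8 ± 2.53 RPKM (SD, n = 2) in LLC and 6.43 ± 2.11 in TAM (log2 difference -2.38, adjusted p = 0.00123). Nop58, of the particles that methylate rRNA, was at 116 ± 16.7 and 22.7 ± 3.39 RPKM, and Polr1a, the largest subunit of RNA polymerase I, at 27.2 ± 2.94 and 4.86 ± 0.231 RPKM. In Fibroblast 31 of the 40 were lower than in LLC, with a median of -1.32 against -0.46. Nucleolin, Ncl, was at 184 ± 34.2 RPKM in LLC and 34.5 ± 1.58 in Fibroblast. Between TAM and Fibroblast 1 was called, Pes1, which rose to 21.1 ± 2.98 from 10.6 ± 0.290 RPKM.

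Of 30 initiation factors 13 were lower in TAM than in LLC and 18 in Fibroblast than in LLC, with none higher. Of 12 elongation factors and partners 5 were lower in each. Eef1b2, an exchange factor for the tRNA carrier Eef1a1, had 365 RPKM in LLC and 97.2 RPKM in TAM (a difference of -1.90, adjusted p = 0.0028). Of 77 mitochondrial ribosomal proteins 12 were lower in TAM and 30 in Fibroblast than in LLC, and TAM exceeded Fibroblast in 8, which is 10.4% of them against 17.4% of all genes. The medians of these 3 comparisons were -0.28, -0.90 and 0.59, against -0.38, -0.46 and 0.13 for all genes. Of the 6 ribosomal proteins outside the naming rule, Fau and Rpl7l1 were lower in Fibroblast than in LLC and none was called in the other comparisons of sorted cells. Gnb2l1, the scaffold protein Rack1, was at 617 ± 14.7 RPKM in TAM and 1326 ± 131 in LLC without being called (adjusted p = 0.109).

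In the list of growth signalling to translation, 5 of 15 genes were lower in TAM and 4 in Fibroblast than in LLC. Of all genes 27.5% and 25.7% were lower. The list's medians were -0.36 and -0.74, against -0.38 and -0.46 for all genes, so in TAM the list as a whole stood near all genes. The other 10 and 11 genes were not called. Myc, a transcription factor that drives ribosome synthesis, was at 284 ± 87.2 RPKM in LLC, 73.7 ± 42.3 in Fibroblast and 32.7 ± 10.5 in TAM. The log2 difference from LLC was -3.08 (adjusted p = 0.00129) in TAM and -2.02 (adjusted p = 0.0109) in Fibroblast. Of the 10 members mutated in inherited (Diamond-Blackfan) anaemia, Rps7 and Rpl5 were lower in both TAM and Fibroblast than in LLC. The other 8 were called in neither. Of the 4 X-linked members, Rpl36a and Rps4x were lower in TAM and Rps4x in Fibroblast. Of all members tested 19% and 20.3% were lower in TAM and in Fibroblast, and of all genes 27.5% and 25.7%. With so few genes, neither count is read as a trait of its list.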

How the data were processed

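The authors deposited RPKM values per RefSeq transcript for 8 libraries. Per the labels' protocols, cDNA was primed with oligo-dT from 200 ng of RNA and read at 50 bases. The submitters' processing notes name STAR, HOMER and build mm9, without versions. Not given in the sources used here are the total behind the RPKM, the strand setting and the treatment of reads with several matches. Of 31645 rows, 3 without a gene name were left out.

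Genes at 1 RPKM or more in at least 2 libraries (13311) were fitted once over all 8 libraries with limma 3.58.1 (R 4.3.3) on log2(RPKM + 1) with a variance trend (4 residual and 3.62 prior degrees of freedom), so fold changes of low genes are understated. P-values were Benjamini-Hochberg adjusted over all genes, and the procedure was tested on simulated data. Depth was estimated, and read counts are not used here. Between 57.7 and 62.3% of the low values fell on whole reads.

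The members, lists and alternatives were chosen with earlier results of these data known. Named were, per comparison, the 4 largest calls in each direction, the 5 highest and 5 lowest members, the paralogues and their partners, the stalk, Rpsa, Rpl5, Rpl11, Rps6, Rps27a and Rpl41, the members apart from the family median, the 3 with the largest replicate differences, and up to 3 called genes per list. Alternatives were pseudocounts of 0.1 and 5, no filter or 5 RPKM, upper-quartile and quantile scaling, a length correction, no variance trend, a replicate term, only the groups compared, and each library left out. Fits without Total tumor, with and without a replicate term, were added after seeing the data. A few items are not reported here.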

Additional observations from a re-analysis of the deposited data

How the results depend on the processing

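Of 20 alternatives for the sorted cells and 18 for Total tumor, pseudocounts, the 5 RPKM filter and no variance trend kept all counts of the uncentred members within 1.5 times. Members lower in TAM than in LLC (15) numbered 39 with quantile normalization, 52 with a length correction, 44 without Total tumor and 39 with only the groups compared, and 3 to 44 with 1 library left out. For Fibroblast against LLC (16) these were 36, 41, 55 and 61, with 9 without a filter, 4 with upper-quartile rescaling and 0 to 55 with 1 library left out. Higher in TAM than in Fibroblast (0) were 4 without Total tumor, 3 with only the groups compared and 0 to 4 with 1 left out. Lower there (2) were 4 with the length correction and 1 to 2. For TAM against Total tumor (23) the counts were 13 without a filter, 15 with upper-quartile rescaling, 41 with quantile normalization, 46 with the length correction, 4 with only the groups compared and 2 to 65. For Fibroblast against Total tumor (34) they were 19, 7 with upper-quartile rescaling, 9 with only the groups compared and 2 to 64. For LLC against Total tumor they were 0 to 28. The members' median in LLC minus Total tumor turned from -0.38 to 0.059 with the length correction and ran from -0.99 without Total tumor 1 to 0.31 without Total tumor 2. That of TAM minus Fibroblast turned from 0.25 to -0.049 (upper quartile), -0.055 (quantile) and -0.15 (length), and ran from -0.026 without TAM 1 to 0.44 without TAM 2. The causes were not tested.

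After centring on the family median, TAM against LLC (1 higher, 1 lower) gave 3 and 3 with the length correction, 2 lower without Total tumor, 0 lower with only the groups compared, and 0 to 2 in each direction with 1 library left out. TAM against Fibroblast gave 1 higher with only the groups compared, and lower (2) 1 with either pseudocount and 0 to 2 with 1 library left out. Fibroblast against LLC gave 1 lower with the length correction, without Total tumor and with only the groups compared, 0 to 1 lower and 1 to 2 higher with 1 left out.

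No label says that a replicate number marks a shared animal or day. Replicate differences over genes correlated at -0.23, -0.18 and -0.36 between Total tumor and the others. Among the sorted groups they correlated at 0.21, 0.27 and 0.16. In these groups replicate 2 was the shallower library and most members were lower in it. Total tumor 2 was also the shallower of its pair (an estimated 4.7 against 9.96 M reads), but 74 of 79 members were higher in it. Whether the correlations among the sorted groups come from pairing or depth cannot be told apart. With the replicate block the lower counts were 10 for Fibroblast against LLC, 14 and 20 for TAM and Fibroblast against Total tumor, and after centring 0 for TAM against LLC and 1 for TAM against Fibroblast. With the replicate block over the sorted groups alone, added after these correlations were seen, lower counts were 55 for TAM against LLC, 63 for Fibroblast against LLC and 3 for TAM against Fibroblast, with 13 higher. After centring it gave, in that order, 2 higher and 5 lower, 3 and 2, and 0 and 5. Upper-quartile rescaling moved the median of all genes by more than 0.1 in some comparisons (Fibroblast minus LLC from -0.46 to -0.05), but the members' median lay below it by 0.57 and 0.52. Summing over every row rather than the kept symbols put the family at 3.87% in LLC, 1.85% in Fibroblast and 1.66% in TAM.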
